A study of Mus musculus with 17 samples.

Results

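The genes described here drive the cell division cycle: 44 were named, by symbol, as cyclins, parts of the DNA replication machinery and genes of mitosis. A gene was measured where a probe set of the array was annotated to its symbol alone, which held for 43 of the 44, with 47 probe sets between them, out of 19751 genes on the array. Ccnb1 was not analysed here. The 43 genes fell into 16 of DNA replication, 5 cyclins of G1, 20 of mitosis and 2 others, Hmgb2 and Stmn1.

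Total RNA was measured on 17 Affymetrix arrays of 1 channel. It came from plasmacytoid dendritic cells (pDC), sorted from the bone marrow of C57BL/6 mice as CD11c-intermediate, B220+ and SiglecH+ cells. The cells were cultured in medium (2 arrays, replicates 1 and 3), with LIF, with CpG-A, with CpG-A + LIF, with CpG-B or with CpG-B + LIF (3 arrays each). CpG-A and CpG-B, 2 classes of DNA oligonucleotide that activate Toll-like receptor 9, were used at a dose of 6 µg/ml over 19 to 23 h. LIF, leukaemia inhibitory factor, was given at 10 ng/ml for 20 to 24 h in all, starting 1 h before CpG where both were given. No group carried a genetic change, and all groups, medium included, were held in culture after sorting. The labels do not say whether replicates came from separate mice, so the p-values measure only the spread between these arrays, which may be technical. The age of the mice is not given in the sources used here.

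Before a cell copies its DNA, the helicase subunits Mcm2 to Mcm7 are loaded on origins by Cdc6 and Cdt1, and Cdc45 and the GINS complex then switch the helicase on. Pcna, the sliding clamp, holds polymerases on DNA, and Rrm1, Rrm2 and Tyms make the nucleotides. D cyclins (with Cdk4 and Cdk6) and E cyclins (with Cdk2) open the way from G1 into S phase. Genes of mitosis are transcribed later, in G2 and M, and include Ccna2, Ccnb2, Cdk1, the kinases Plk1, Aurka and Aurkb, kinesins of the spindle, and Cdc20 and Ube2c of the ubiquitin ligase that ends mitosis. Mature pDC are known as cells that divide little.

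The deposited values have lost their decimal mark, so that a value on the log2 scale is fixed except for whole steps of log2(10), 3.32. For each comparison the text gives the nearest reading, the difference that lies between -1.66 and 1.66 on the log2 scale, and the other reading lies 3.32 away on the opposite side of 0. Calls were made at an adjusted p below 0.05 (limma, Benjamini-Hochberg over all 19751 genes). A called gene is said to be higher or lower only if its reading was at most 1.11 in size, 2.15-fold, since the other reading is then at least 4.64-fold the opposite way; for larger readings both are given and the direction is undetermined. Levels, and so an order of the genes by level, cannot be recovered. All 17 arrays lay within a span of 1.66 for 23 of the 43 genes. Over all genes the median SD within groups was 0.190, and over the 43 genes it was 0.263. A lower value in these bulk samples may mean less RNA per cell or fewer cells of a kind, which cannot be told apart.

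The sequences just upstream of these genes are shown because the replication and the mitotic genes, whose readings are compared throughout, hold different motifs there. They are RefSeq sequences of mouse build GRCm38.p6, from 250 bases before to 50 bases after the start of the gene, 5′ to 3′ on the strand of the gene. Capitals mark E2F-type motifs in the first set (TTTGGCGC, TTTCGCGC, TTTCCCGC or TTTGCCGC, on either strand; matches may overlap) and the cell cycle homology region, CHR, in the second (TTTGAA, either strand). Mcm6 lies at chr1:128359656-128359955 on the minus strand, Mcm3 at chr1:20820263-20820562 on the minus strand and Cdc6 at chr11:98907901-98908200 on the plus strand.
Mcm6: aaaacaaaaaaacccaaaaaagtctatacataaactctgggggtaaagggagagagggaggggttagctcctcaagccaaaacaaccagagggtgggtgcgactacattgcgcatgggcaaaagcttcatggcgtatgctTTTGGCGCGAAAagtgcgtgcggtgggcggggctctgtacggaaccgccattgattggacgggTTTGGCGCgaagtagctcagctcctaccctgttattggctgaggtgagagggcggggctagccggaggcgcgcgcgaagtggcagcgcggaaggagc
Mcm3: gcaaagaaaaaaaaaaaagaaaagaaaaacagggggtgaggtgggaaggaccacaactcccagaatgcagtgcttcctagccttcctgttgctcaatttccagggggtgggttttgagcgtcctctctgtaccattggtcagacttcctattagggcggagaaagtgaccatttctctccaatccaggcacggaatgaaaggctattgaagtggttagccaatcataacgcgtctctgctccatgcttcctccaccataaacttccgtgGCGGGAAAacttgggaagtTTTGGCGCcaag
Cdc6: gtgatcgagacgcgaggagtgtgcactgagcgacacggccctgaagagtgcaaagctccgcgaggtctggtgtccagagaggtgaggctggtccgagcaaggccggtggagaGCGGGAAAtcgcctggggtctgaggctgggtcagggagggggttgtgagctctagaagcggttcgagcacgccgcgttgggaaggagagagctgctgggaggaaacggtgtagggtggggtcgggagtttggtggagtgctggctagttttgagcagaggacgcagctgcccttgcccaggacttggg
Cdc20 lies at chr4:118437294-118437593 on the minus strand, Plk1 at chr7:122159185-122159484 on the plus strand and Kif23 at chr9:61946750-61947049 on the minus strand.
Cdc20: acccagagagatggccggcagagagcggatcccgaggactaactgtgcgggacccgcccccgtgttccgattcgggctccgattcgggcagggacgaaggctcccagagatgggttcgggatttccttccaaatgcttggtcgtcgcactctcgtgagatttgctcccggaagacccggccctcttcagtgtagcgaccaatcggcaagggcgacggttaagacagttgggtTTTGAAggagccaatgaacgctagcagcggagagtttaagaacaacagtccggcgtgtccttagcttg
Plk1: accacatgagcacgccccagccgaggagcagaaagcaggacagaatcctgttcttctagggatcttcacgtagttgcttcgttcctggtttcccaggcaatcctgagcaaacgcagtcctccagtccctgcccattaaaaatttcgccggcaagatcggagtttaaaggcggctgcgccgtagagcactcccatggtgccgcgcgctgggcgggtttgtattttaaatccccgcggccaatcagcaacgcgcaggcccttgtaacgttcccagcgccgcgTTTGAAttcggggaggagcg
Kif23: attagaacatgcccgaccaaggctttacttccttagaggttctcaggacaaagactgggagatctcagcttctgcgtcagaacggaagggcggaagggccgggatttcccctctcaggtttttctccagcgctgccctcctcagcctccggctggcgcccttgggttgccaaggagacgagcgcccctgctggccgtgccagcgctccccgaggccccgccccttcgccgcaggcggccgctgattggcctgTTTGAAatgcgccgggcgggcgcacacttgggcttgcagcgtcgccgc
E2F factors are known as activators of S phase genes, and the CHR element as the site through which the DREAM and MuvB complexes act on genes of G2 and M.

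RefSeq promoters were matched for 13 of the 16 replication genes and 17 of the 21 named mitotic genes, Ccnb1 among them. An E2F-type motif was present in 6 of the 13 replication genes (46.2%: Mcm3, Mcm5, Mcm6, Mcm7, Cdc6 and Cdt1), in 1 of the 17 mitotic genes (5.88%: Cdk1) and in 2.60% of all 27025 genes with a promoter. A CHR motif was present in 12 of the 17 mitotic genes (70.6%, among them Ccnb2, Cdk1, Cdc20, Kif11, Mki67 and Top2a), in 2 of the 13 replication genes (15.4%: Mcm2 and Cdc45) and in 20.2% of all genes. The CCAAT box was found in 76.9% of the replication genes, 88.2% of the mitotic genes and 41.1% of all genes. In wider lists of each kind the E2F-type motif was found in 31.4% of 35 replication genes and 10.3% of 39 mitosis genes, CHR in 17.1% and 74.4% and the CCAAT box in 48.6% and 69.2%. A match says only that these letters occur in the window; binding was not measured.

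**Figure D1:**
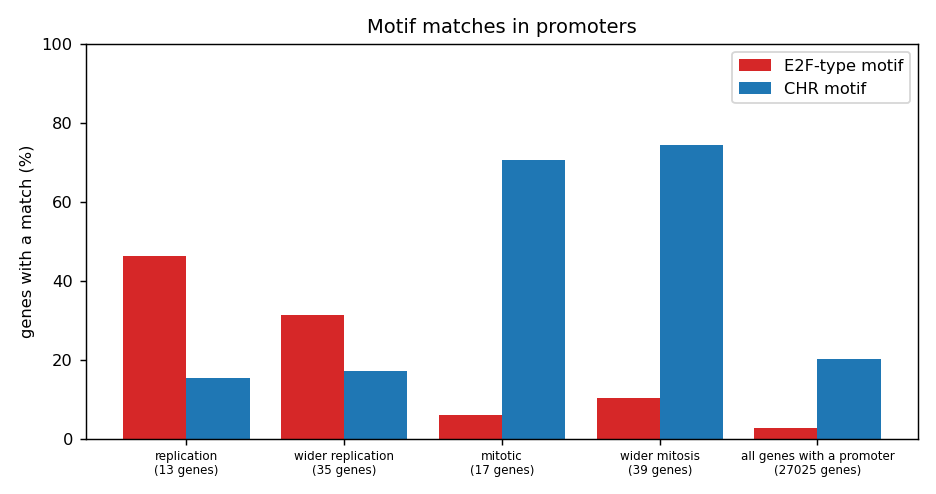
Share of genes (%, vertical axis) whose promoter holds an E2F-type or a CHR motif, for the replication genes, a wider replication list, the mitotic genes, a wider mitosis list and all genes. The E2F-type motif reaches 46.2% in the replication genes and CHR 70.6% in the mitotic genes, against 2.60% and 20.2% of all genes.

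After CpG-B alone the replication genes that could be given a direction were higher, and the mitotic genes that could be given one were lower. Of the 16 replication genes, 12 were called against medium: 6 rose (Mcm5, Mcm7, Mcm10, Cdc6, Cdt1 and Pcna), by 1.45-fold to 2.06-fold, and 6 differed with an undetermined direction (Mcm2, Mcm3, Mcm4, Mcm6, Gins1 and Tyms). None of the 16 was called and read lower. With LIF in both groups Mcm5, Mcm7, Cdc6 and Pcna read past the limit of 1.11, so that 2 of the 6, Mcm10 and Cdt1, had a direction both with and without LIF. A second Pcna probe set was read higher both with LIF (0.80 ± 0.12) and without it (0.88 ± 0.13). Of the 20 mitotic genes, 9 were called. Among these 5 fell (Cdc20, Kif11, Kif20a, Kif23 and Nusap1), by 1.51-fold to 2.13-fold, and none was read higher. The other 4 had an undetermined direction with the nearest reading below 0 (Ccnb2, Cenpa, Plk1 and Ube2c). All 5 that fell read within the limit with LIF as well, where Kif20a, at -0.17, was not called. Across all genes CpG-B gave calls for 19.2% (6.94% higher, 7.0% lower, 5.27% undetermined), against 26 of the 43 genes here (8 higher, 6 lower, 12 undetermined). The median reading was 0.83 over the replication genes, -0.59 over the mitotic genes and -0.05 over all genes, medians that include the undetermined readings. In the 4 CpG groups the array numbered 2 lay low in the mitotic genes (median deviation from its group -0.26 to -0.10). It also lay below its group in the replication genes (-0.22 to -0.06). Without every array of that number 14 replication and 8 mitotic genes were called.

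The helicase and loading genes are given first. Relative to the mean of medium, on the log2 scale used for all array values here, the helicase subunit Mcm5 lay at 0.07 and -0.07 in the medium arrays and at 1.16, 1.12 and 0.84 with CpG-B. The CpG-B arrays were all above medium, by 1.04 ± 0.20 (SE), 2.06-fold (adjusted p = 0.00106), and the call held whichever array was left out. Such a separation of CpG-B from medium was seen in 36 of the 43 genes and in 45.3% of all genes. Cdc6, which loads the helicase, lay at 0.26 and -0.26 in medium and at 1.12, 0.84 and 1.17 with CpG-B, 1.04 ± 0.26 higher (adjusted p = 0.00761). Its partner Cdt1 lay at 0.12 and -0.12 in medium and at 0.93, 0.62 and 0.80 with CpG-B, 0.79 ± 0.21 higher (adjusted p = 0.0123). The groups did not overlap for either gene, but both calls were lost without medium replicate 3 (adjusted p 0.141 and 0.131).

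Mcm7, another helicase subunit, was at 0.00 in both medium arrays and at 0.54, 0.46 and 0.60 with CpG-B, 0.54 ± 0.15 higher (adjusted p = 0.019). Mcm10, which helps the helicase to start, lay at 0.01 and -0.01 in medium and at 1.16, 0.40 and 0.92 with CpG-B, 0.83 ± 0.23 higher (adjusted p = 0.0148). Both were higher in all 3 CpG-B arrays, yet both calls were lost without either medium array, and also without CpG-B replicate 3 for Mcm7 and CpG-B replicate 1 for Mcm10. The clamp Pcna lay at 0.07 and -0.07 in medium and at 0.89, 0.94 and 0.73 with CpG-B, 0.85 ± 0.22 higher (adjusted p = 0.00903), a call lost without medium replicate 3 (adjusted p = 0.0868). A second Pcna probe set gave 0.88 ± 0.13, also called.

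For 4 of the 6 subunits of the helicase ring the change with CpG-B was too large to be given a direction. Mcm2 lay at 0.02 and -0.02 in medium and at -1.42, -1.70 and -1.68 with CpG-B, a difference of -1.60 ± 0.14 or, on the other reading, 1.73. Mcm3 lay at 0.27 and -0.27 in medium and at -1.19, -1.60 and -1.65 with CpG-B, -1.48 ± 0.20 or 1.84. In both genes the CpG-B arrays were far from medium on either reading. Mcm4 lay at -0.06 and 0.06 in medium and at 1.92, 1.20 and 1.76 with CpG-B, 1.63 ± 0.19 or -1.69. Mcm6 lay at 0.08 and -0.08 in medium and at 1.90, 1.35 and 1.37 with CpG-B, 1.54 ± 0.17 or -1.78. All 4 calls held whichever array was left out (adjusted p from 1.51e-06 for Mcm2 to 2.98e-05 for Mcm3), while the nearest reading of Mcm2, Mcm3 and Mcm4 took the other sign without 1 or another array. Gins1, a GINS subunit, read 1.34 ± 0.27 or -1.99 (adjusted p = 0.00139). Tyms, thymidylate synthase, read 1.12 ± 0.38 or -2.20 (adjusted p = 0.0436) and lost its call without any one of 10 arrays, all 3 CpG-B and both medium arrays among them.

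Cdc45, Gins2, Rrm1 and Rrm2 were not called after CpG-B, with readings of 0.84 ± 0.31, 0.12 ± 0.16, 0.64 ± 0.25 and 0.23 ± 0.32. The 2 ribonucleotide reductase genes spread widely within groups. Rrm2 lay at 0.69, -0.31 and 0.31 in the CpG-B arrays and overlapped medium, at -0.15 and 0.15.

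**Figure D2:**
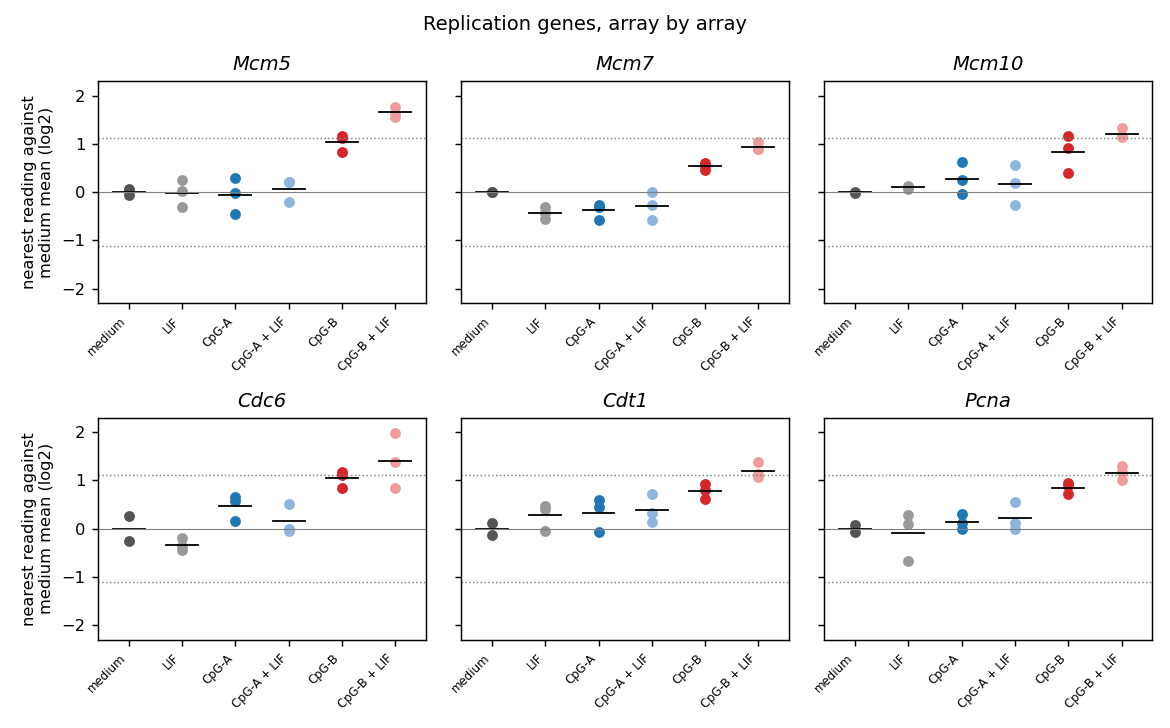
Nearest reading of each array against the mean of medium (log2, vertical axis) for Mcm5, Mcm7, Mcm10, Cdc6, Cdt1 and Pcna in the 6 groups; points are arrays, bars are group means and dotted lines mark 1.11 on either side of 0. For these 6 genes the CpG-B arrays lie between 0.40 and 1.17, above both medium arrays.

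Of the mitotic genes that fell with CpG-B, the smallest adjusted p was that of Cdc20, the activator of the anaphase-promoting complex. It lay at 0.06 and -0.06 in medium and at -0.98, -0.95 and -0.90 with CpG-B. The CpG-B arrays were tightly grouped and all below medium, by 0.94 ± 0.15 (adjusted p = 1.63e-04, 1.92-fold). Kif23, a kinesin of the dividing cell's midbody, lay at 0.26 and -0.26 in medium and at -0.91, -1.08 and -1.28 with CpG-B, a fall by 1.09 ± 0.20 (adjusted p = 6.14e-04). Nusap1, a spindle protein, fell by 0.78 ± 0.17 (adjusted p = 0.0029). These 3 calls held whichever array was left out. Kif11 and Kif20a, 2 more spindle kinesins, fell by 0.76 ± 0.22 and 0.60 ± 0.17, and each call was lost without any of 3 arrays (medium replicates 1 and 3 for both, CpG-B replicate 2 for Kif11 and CpG-B replicate 1 for Kif20a).

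Ube2c, the ubiquitin-conjugating enzyme of the same complex as Cdc20, lay at -0.09 and 0.09 in medium and at -1.22, -1.25 and -1.19 with CpG-B, -1.22 ± 0.20 or 2.10. Cenpa, the histone variant of centromeres, lay at 0.16 and -0.16 in medium and at -1.38, -1.48 and -1.06 with CpG-B, -1.31 ± 0.22 or 2.01. Both stood clear of medium, with the direction undetermined. Ccnb2, a B cyclin, read -1.34 ± 0.24 or 1.98, and Plk1 read -1.14 ± 0.22 or 2.18, just past the limit of 1.11.

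Mki67, whose protein Ki-67 is the usual marker of cycling cells, was not called after CpG-B, at -0.39, -0.98 and -0.30 against 0.10 and -0.10 in medium (-0.55 ± 0.24, adjusted p = 0.125). Cdk1, the kinase that starts mitosis, read -0.01 ± 0.17, and Top2a, which untangles DNA, read -0.21 ± 0.22. The other mitotic genes without a call read between -0.59 and -0.23.

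Of the 5 G1 cyclins 4 were called with CpG-B. Ccne1 lay at 0.04 and -0.04 in medium and at 0.78, 0.57 and 0.63 with CpG-B, 0.66 ± 0.17 higher (adjusted p = 0.00779, lost without medium replicate 3). Ccne2 lay at -0.13 and 0.13 in medium and at 1.03, 0.81 and 1.32 with CpG-B, 1.06 ± 0.23 higher (adjusted p = 0.00293, lost without medium replicate 1). Both E cyclins were higher in all 3 CpG-B arrays than in either medium array. Ccnd2 lay at 0.18 and -0.18 in medium and at 1.19, 1.19 and 1.18 with CpG-B, 1.18 ± 0.22 or -2.14. Ccnd1 lay at -0.06 and 0.06 in medium and at -1.53, -1.16 and -1.31 with CpG-B, -1.33 ± 0.18 or 1.99. Ccnd3 was not called, at -0.06 and 0.06 in medium and 0.12, -0.02 and 0.07 with CpG-B (0.06 ± 0.13, adjusted p = 0.838). Of the D cyclins 2 were therefore called, both with the direction undetermined, and 1 was not.

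CpG-A lowered mitotic genes without a call in the replication genes. Of the 20 mitotic genes 13 were called: 10 fell (Ccna2, Cdc20, Kif11, Kif20a, Kif23, Mki67, Aurka, Aurkb, Birc5 and Plk1), by 1.56-fold to 2.09-fold, none was read higher, and Ccnb2, Cenpa and Ube2c had an undetermined direction with the nearest reading below 0. Of the 10, Mki67 alone was just past the limit with LIF in both groups (-1.11 ± 0.21 or 2.21). Aurka and Kif20a, at -0.52 and -0.38, were not called there. Of the 16 replication genes limma called 0; 1 (Mcm7) had an unadjusted p under 0.05, and the lowest adjusted p was 0.113. Across all genes 16.7% were called (4.91% higher, 7.15% lower, 4.64% undetermined), against 17 of the 43 genes here (1 higher, 11 lower, 5 undetermined). The median reading was 0.12 over the replication genes, -0.87 over the mitotic genes and -0.02 over all genes. The comparison shares its medium arrays with that of CpG-B.

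Ccna2, the cyclin of S phase and G2, lay at -0.04 and 0.04 in medium and at -1.13, -0.86 and -0.81 with CpG-A. All 3 CpG-A arrays were below medium, a fall by 0.93 ± 0.17 (adjusted p = 6.24e-04). CpG-A and medium did not overlap in 25 of the 43 genes and in 41.1% of all genes. Cdc20 lay at 0.06 and -0.06 in medium and at -0.88, -0.76 and -0.78 with CpG-A, a fall by 0.81 ± 0.15 (adjusted p = 7.98e-04). Kif23 fell by 1.06 ± 0.20, Kif11 by 1.01 ± 0.22 and the kinase Plk1 by 0.98 ± 0.22. These 5 calls held whichever array was left out.

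Mki67 lay at 0.10 and -0.10 in medium and at -0.86, -1.24 and -0.79 with CpG-A, a fall by 0.96 ± 0.24 (adjusted p = 0.00803). Birc5, survivin, of the chromosomal passenger complex, fell by 0.94 ± 0.23 (adjusted p = 0.00668). In both the groups did not overlap, but Mki67 lost its call without medium replicate 1 and Birc5 without medium replicate 3. The kinases Aurkb and Aurka fell by 0.74 ± 0.20 and 0.69 ± 0.21 and Kif20a by 0.64 ± 0.17, and each lost its call without either of 2 arrays (CpG-A replicate 2 and medium replicate 3, for Aurkb) or any of 3 (both medium arrays and CpG-A replicate 1, for Aurka and Kif20a).

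Ube2c lay at -1.31, -1.54 and -1.06 with CpG-A, -1.30 ± 0.20 or 2.02. Ccnb2 lay at 0.01 and -0.01 in medium and at -1.29, -1.37 and -1.35 with CpG-A, -1.34 ± 0.24 or 1.99. Cenpa read -1.15 ± 0.22 or 2.17, and these 3 calls held whichever array was left out. Bub1, a checkpoint kinase, had the widest spread: it lay at 0.10 and -0.10 in medium and at -0.61, -1.81 and -1.16 with CpG-A, and was not called (-1.20 ± 0.41, adjusted p = 0.052). Top2a lay at 0.13 and -0.13 in medium and at -0.54, -0.96 and -0.43 with CpG-A, below medium in all 3 but not called (-0.64 ± 0.22, adjusted p = 0.0587). Cdk1 and Cenpe read 0.00 ± 0.17 and 0.01 ± 0.22.

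The replication genes lay nearer to medium with CpG-A. Mcm2 lay at 0.14, -0.11 and 0.08, Mcm4 at 0.30, 0.11 and -0.06, and Mcm6 at 0.04, -0.46 and -0.22, so that medium and CpG-A overlapped in all 3. Mcm7, at -0.26, -0.57 and -0.31, was the farthest from medium relative to its error (-0.38 ± 0.15, adjusted p = 0.113). Pcna lay at -0.01, 0.12 and 0.31, Cdt1 at 0.46, -0.06 and 0.59 and Cdc6 at 0.66, 0.16 and 0.58, each overlapping medium. The readings of the 16 ran from -0.38 to 0.46.

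Of the G1 cyclins, Ccne2 was higher with CpG-A, at 1.33, 0.85 and 0.78, a rise by 0.99 ± 0.23 (adjusted p = 0.00562, lost without medium replicate 1), and Ccnd2 lay at 1.39, 0.85 and 1.36, 1.20 ± 0.22 or -2.12. Ccne1 lay at 0.70, 0.14 and 0.35, above medium but not called (0.39 ± 0.17, adjusted p = 0.127). Ccnd1 lay at 0.36, 0.31 and 0.79 (0.49 ± 0.18, adjusted p = 0.0759), and Ccnd3 read 0.08 ± 0.13. Stmn1, which takes microtubules apart, lay at 0.14 and -0.14 in medium and at -0.86, -1.67 and -0.41 with CpG-A, a fall by 0.98 ± 0.26 (adjusted p = 0.0132) that lost its call without medium replicate 1 or CpG-A replicate 2. Hmgb2, a chromatin protein of dividing cells, lay at -0.09 and 0.09 in medium, at -1.62, -1.79 and -1.05 with CpG-A and at -1.0, -1.19 and -0.86 with CpG-B. It read -1.48 ± 0.24 or 1.84 with CpG-A, and with CpG-B it fell by 1.02 ± 0.24 (adjusted p = 0.00481, lost without medium replicate 3). Its 3 other probe sets read -1.46, -0.95 and -1.08 with CpG-A, all called, and -1.26, -0.44 and -0.70 with CpG-B, of which the last alone was called.

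**Figure D3:**
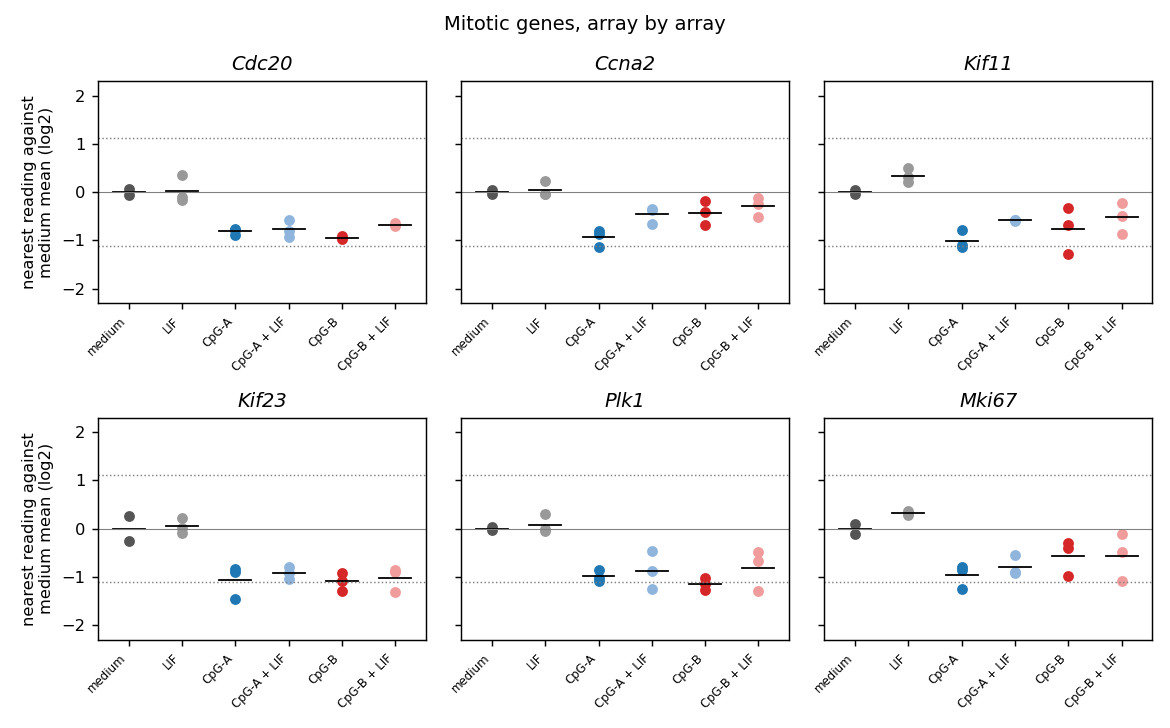
Nearest reading of each array against the mean of medium (log2, vertical axis) for Cdc20, Ccna2, Kif11, Kif23, Plk1 and Mki67 in the 6 groups; points are arrays, bars are group means and dotted lines mark 1.11 on either side of 0. In all 6 genes the CpG-A arrays lie below both medium arrays. The LIF arrays lie between -0.17 and 0.50, all of them above both medium arrays for Kif11 and Mki67.

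**Figure D4:**
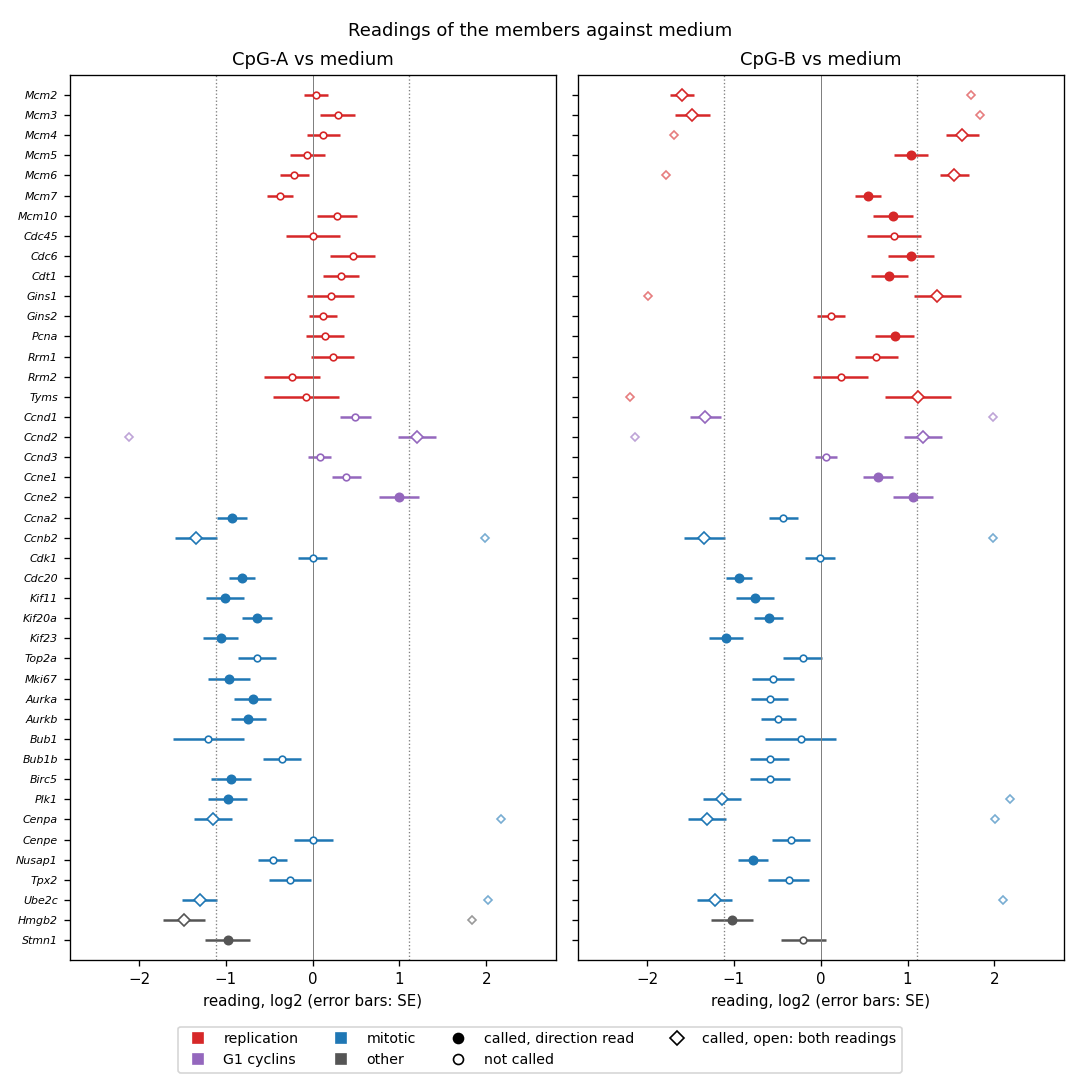
Nearest reading ± SE (log2, horizontal axis) of the 43 genes for CpG-A and CpG-B against medium, in groups by role; filled symbols are called with a direction, hollow circles are not called, and diamonds show both readings of calls with an undetermined direction. Replication genes carry 0 calls with CpG-A and 12 with CpG-B; mitotic genes carry 13 and 9.

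Compared directly, the 2 CpG classes differed in 9 of the 16 replication genes and in 1 of the 20 mitotic genes. Of the 16 replication genes 9 were called between CpG-A and CpG-B: Mcm5, Mcm7 and Pcna were lower with CpG-A, and Mcm2, Mcm3, Mcm4, Mcm6, Gins1 and Tyms had an undetermined direction. Of the 20 mitotic genes 1 was called, Ccna2. Across all genes 13.0% were called (4.42% higher, 6.14% lower, 2.40% undetermined), against 12 of the 43 genes here. The median reading was -0.65 over the replication genes, -0.02 over the mitotic genes and 0.04 over all genes.

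Mcm7 was lower with CpG-A by 0.92 ± 0.14 (adjusted p = 1.68e-04) and Mcm5 by 1.10 ± 0.18 (adjusted p = 4.05e-04), both calls held whichever array was left out, and no CpG-A array reached the CpG-B range, as in 15 of the 43 genes and 28.2% of all genes. Pcna was lower by 0.72 ± 0.20 (adjusted p = 0.0195), a call lost without any one of 4 arrays, replicates 1 and 2 of both groups; its second probe set was lower by 0.50. Cdc6, Cdt1 and Mcm10 read -0.58 ± 0.23, -0.45 ± 0.19 and -0.55 ± 0.20 and were not called, so that their rise against medium with CpG-B is not shown to be particular to CpG-B. The undetermined readings were 1.63 ± 0.12 or -1.69 for Mcm2, -1.55 ± 0.18 or 1.77 for Mcm3, -1.51 ± 0.17 or 1.81 for Mcm4 and 1.57 ± 0.16 or -1.75 for Mcm6. The largest of their 4 adjusted p-values was 1.48e-05. For Mcm3, Mcm6 and Ccnd1 (and for 1.92% of all genes) the nearest readings of the 3 comparisons do not add up, so that at least 1 of the 3 must be the other reading.

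Ccna2 was lower with CpG-A than with CpG-B (-0.18, -0.69 and -0.42 with CpG-B), by 0.50 ± 0.15 (adjusted p = 0.0337), and Stmn1 was lower by 0.78 ± 0.23 (adjusted p = 0.0327). Both calls were lost without any one of 4 arrays, replicates 1 and 2 of CpG-A and replicates 1 and 3 of CpG-B. Bub1 lay at 0.23, -0.78 and -0.13 with CpG-B and read -0.97 ± 0.36 between the classes (adjusted p = 0.0955), and Top2a lay at 0.12, -0.61 and -0.16 and read -0.43 ± 0.20. For Cdc20, Kif23 and Plk1 the difference between the classes was 0.14 ± 0.13, 0.03 ± 0.18 and 0.16 ± 0.20, and none was called. Ccnd1 differed, by -1.50 ± 0.16 or 1.82 (adjusted p = 9.22e-06), whereas Ccnd2, Ccnd3, Ccne1 and Ccne2 were not called, with readings from -0.26 to 0.02.

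The comparison was made again on separate arrays, with LIF in both groups. Between CpG-A + LIF and CpG-B + LIF 15 of the 16 replication genes were called, all but Rrm2: 6 were lower with CpG-A + LIF (Mcm10, Cdc45, Cdt1, Gins2, Pcna and Rrm1) and 9 had an undetermined direction. Of the 20 mitotic genes 1 was called, Top2a, lower by 0.62 ± 0.20 (adjusted p = 0.0382), a call lost without any one of 4 arrays (CpG-B + LIF replicates 1 and 3, CpG-A + LIF replicates 2 and 3). Across all genes 16.9% were called (5.63% higher, 8.0% lower, 3.27% undetermined), against 18 of the 43 genes here. Mcm10 was lower with CpG-A + LIF by 1.05 ± 0.20 (adjusted p = 0.00138), Cdt1 by 0.81 ± 0.19 (adjusted p = 0.00544), Pcna by 0.94 ± 0.20 (adjusted p = 0.00234) and Rrm1 by 0.92 ± 0.22 (adjusted p = 0.00729). These 4 calls held whichever array was left out, as did 12 of the 15. Ccne1 was also lower, by 0.50 ± 0.15 (adjusted p = 0.0267), lost without CpG-A + LIF replicate 1 or 2 or CpG-B + LIF replicate 3. The nearest readings of Mcm5, Cdc6 and Ccnd1 (and of 2.03% of all genes) do not add up over the 3 comparisons of CpG-A + LIF, CpG-B + LIF and LIF.

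**Figure D5:**
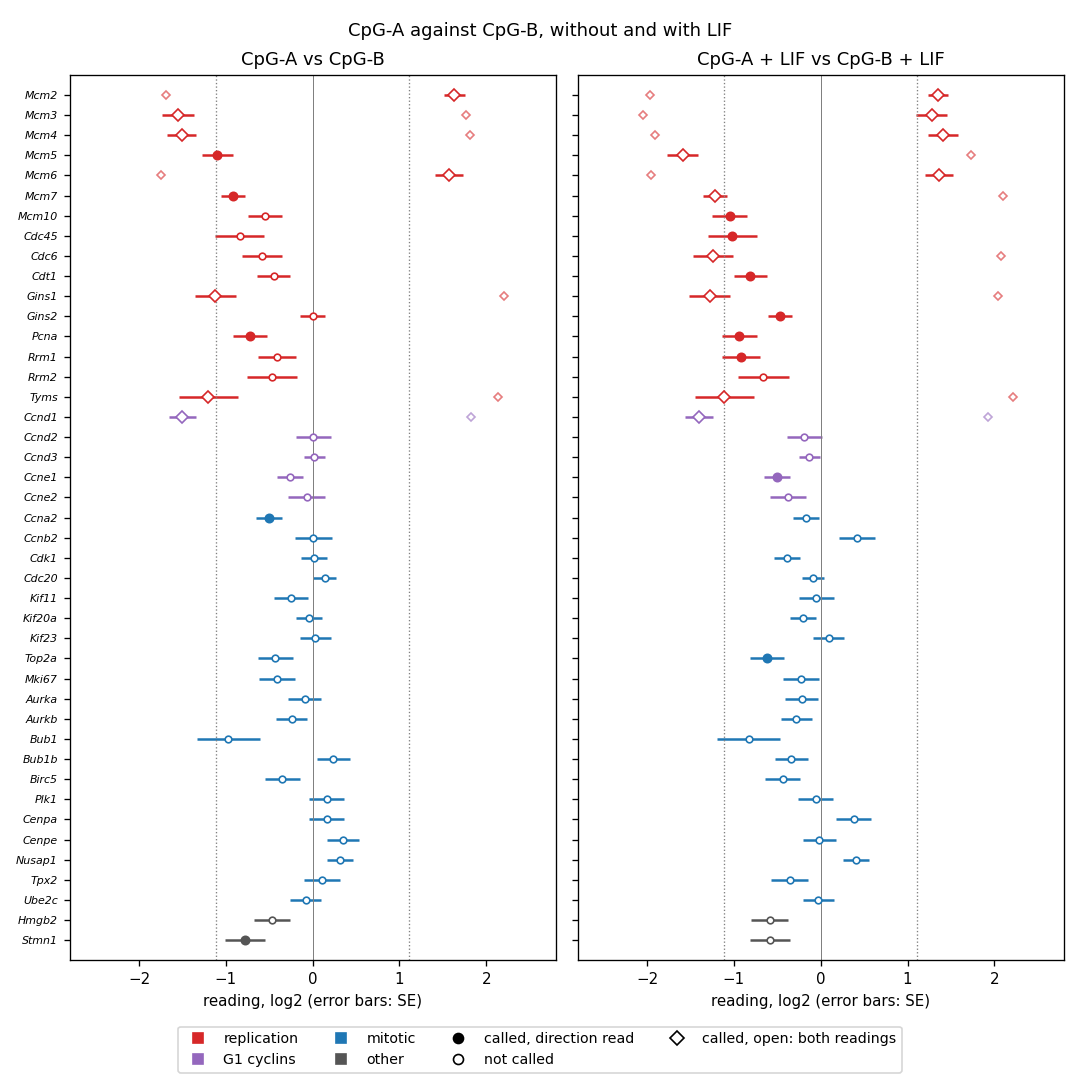
Nearest reading ± SE (log2, horizontal axis) of the 43 genes for CpG-A against CpG-B, without LIF and with LIF, in groups by role; symbols as in the plot of readings against medium. Calls number 9 without LIF and 15 with LIF in the replication genes, and 1 and 1 in the mitotic genes.

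Both CpG effects were also measured against LIF alone, with 3 arrays on each side. With CpG-B + LIF 15 of the 16 replication genes, all but Rrm2, and 10 of the 20 mitotic genes were called, against 25.4% of all genes (10.5% higher, 9.02% lower, 5.94% undetermined). Mcm10 rose by 1.11 ± 0.20 (adjusted p = 4.54e-04), Cdt1 by 0.92 ± 0.19 (adjusted p = 0.00117), Rrm1 by 0.70 ± 0.22 (adjusted p = 0.0264) and Gins2 by 0.50 ± 0.14 (adjusted p = 0.0126). The first 2 calls held whichever array was left out; Rrm1 lost its call without replicate 1 or 3 of either group and Gins2 without LIF replicate 2 or 3. Those 4 were read higher, 2 were read lower (Mcm2, by 1.06 ± 0.12, or 2.27 on the other reading, and Mcm3, by 0.83 ± 0.18, or 2.50), and 9 were undetermined. Without LIF Mcm2 and Mcm3 read past the limit, so that with a reading inside it both with and without LIF 4 were higher and 0 lower. This requirement was not planned in advance and takes out both genes that were read lower, so no agreement in direction follows from it. Of the 4 read higher, Rrm1 and Gins2 were not called without LIF. Mcm5 read -1.66 ± 0.18 or 1.67, Cdc6 -1.59 ± 0.23 or 1.73, Mcm7 1.38 ± 0.14 or -1.95 and Pcna 1.26 ± 0.20 or -2.07. In the probe sets used, the direction of these 4, higher with CpG-B alone, was thus undetermined with LIF. A second Pcna probe set read inside the limit, higher by 0.80 ± 0.12 (adjusted p = 6.31e-05, limma over all probe sets with 1 symbol).

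Of the mitotic genes 8 fell with CpG-B + LIF (Cdc20, Kif11, Kif23, Mki67, Cenpe, Nusap1, Plk1 and Ube2c) and none was read higher. Plk1 and Ube2c read past the limit without LIF, which leaves 6 with a reading inside it in both comparisons. Of the 6, Mki67 and Cenpe were not called for CpG-B against medium, at -0.55 and -0.34. Of the 8 calls Cenpe alone was lost when arrays were left out, without LIF replicate 3 or any CpG-B + LIF array. Cdc20 lay at -0.17, 0.35 and -0.11 with LIF and at -0.64, -0.69 and -0.71 with CpG-B + LIF, below the LIF arrays throughout (29 of the 43 genes and 37.2% of all genes did not overlap), a fall by 0.70 ± 0.13 (adjusted p = 6.30e-04). Mki67 lay at 0.29, 0.36 and 0.32 with LIF and at -0.48, -1.09 and -0.11 with CpG-B + LIF, a fall by 0.88 ± 0.21 (adjusted p = 0.00465). The E cyclins Ccne1 and Ccne2 rose by 0.78 ± 0.15 and 0.59 ± 0.21 (Ccne2 at an adjusted p of 0.046, lost without any one of 9 arrays), Ccnd2 rose by 0.79 ± 0.20 (-2.53 on the other reading) and Ccnd1 fell by 0.68 ± 0.16 (2.65 on the other reading). The readings of both D cyclins for CpG-B against medium are past the limit.

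With CpG-A + LIF 15 of the 20 mitotic genes were called, 12 lower, none higher and 3 undetermined. Across all genes 17.4% were called (6.23% higher, 7.29% lower, 3.85% undetermined). Of the 12, 10 also had a reading inside the limit without LIF, which leaves out Cenpa and Ube2c. Without LIF, however, Top2a, Nusap1 and Cenpe among the 10 were not called, at -0.64, -0.46 and 0.01. Kif23 fell by 0.98 ± 0.18, Ube2c by 0.99 ± 0.18, Plk1 by 0.95 ± 0.20 and Cdc20 by 0.79 ± 0.13. Of the 15 calls 8 held whichever array was left out, and over all 43 genes the number of calls went from 18 to 11 without LIF replicate 3. Limma called 0 of the 16 replication genes (3 at an unadjusted p under 0.05), with readings from -0.22 to 0.61 and a median of 0.10. A second probe set of Pcna was called, higher by 0.36 ± 0.12 (adjusted p = 0.0398, limma over all probe sets with 1 symbol). Without every array numbered 2, 1 replication gene was called, Cdc45, at 0.94 (adjusted p = 0.00601), and the median was 0.33.

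With LIF alone 1 of the 43 genes was called, Ccnd1, against 0.810% of all genes. Ccnd1 lay at -1.05, -1.57 and -1.32 with LIF, -1.31 ± 0.18 or 2.01 against medium (adjusted p = 0.0019), a call lost without medium replicate 3 (adjusted p = 0.0536). In LIF replicate 2 Rrm1, Rrm2 and Tyms lay at 0.81, 1.20 and 1.13, where the other LIF arrays lay between -0.44 and 0.14. The median reading was -0.02 over the replication genes and 0.07 over the mitotic genes.

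Added to CpG-A, LIF gave limma 0 calls among the 43 genes (3 at an unadjusted p under 0.05; 0.00506% of all genes called). Added to CpG-B it also gave 0 (12 at an unadjusted p under 0.05, of which 10 were replication genes; 0.0608% of all genes called: 0.0152% higher, 0.0304% lower and 0.0152% undetermined). All 16 replication readings were above 0 in the latter comparison, from 0.25 for Gins2 to 0.75 ± 0.29 for Rrm2, with a median of 0.39 against 0.00 over all genes. The median of the mitotic genes was also above 0 there, at 0.25, so the shift was not particular to the replication genes. The lowest adjusted p among the 43 genes was 0.190. Mcm7 lay at 0.54, 0.46 and 0.60 with CpG-B and at 0.89, 1.04 and 0.90 with CpG-B + LIF (0.40 ± 0.14, adjusted p = 0.417). The groups did not overlap for Mcm7, yet 13.9% of all genes showed such separation, and 18 of the 43 genes here. As the difference between the effect of CpG-B with LIF and without it, 5 of the 43 genes were called (2.26% of all genes), all 5 resting on a reading past the limit, and for CpG-A limma called 0 (1.41% of all genes; 4 members at an unadjusted p under 0.05).

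Further genes of the pathway were counted by list, against the same shares of all genes called (19.2% with CpG-B, 16.7% with CpG-A, 13.0% between the classes). Of 41 further replication genes, 25 were called with CpG-B (12 higher, 2 lower, 11 undetermined) and 7 with CpG-A (4 higher, 3 lower), and 24 between CpG-A and CpG-B (1 higher, 15 lower, 8 undetermined). With CpG-B Fen1, the flap nuclease of lagging-strand synthesis, rose by 0.95 ± 0.16 (adjusted p = 2.01e-04) and Pold3, a polymerase delta subunit, by 1.02 ± 0.20 (adjusted p = 0.00112), while Pold1 fell by 0.49 ± 0.14 and Dbf4 by 0.59 ± 0.19. With CpG-A the origin recognition gene Orc4 rose by 0.63 ± 0.14 and Timeless by 0.63 ± 0.19, and Rfc1 and Pold1 fell by 0.68 ± 0.15 and 0.60 ± 0.14. Dnmt1, which copies DNA methylation, and Gmnn, the inhibitor of Cdt1, were lower with CpG-A than with CpG-B, by 0.88 ± 0.13 (adjusted p = 1.24e-04) and 1.00 ± 0.18 (adjusted p = 9.26e-04), and Prim1 was higher, by 1.08 ± 0.28. With LIF in both groups 32 of the 41 were called (2 higher, 16 lower, 14 undetermined), among them Rpa1 and Pold2, lower by 0.77 ± 0.12 and 1.03 ± 0.19. Against LIF alone, 12 of the 41 were called with CpG-A + LIF (5 higher, 6 lower, 1 undetermined), where 17.4% of all genes were called. With CpG-B + LIF 31 were called (16 higher, 3 lower, 12 undetermined), where 25.4% of all genes were called.

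Of 45 further mitosis genes, 14 were called with CpG-A (0 higher, 9 lower, 5 undetermined), 12 with CpG-B (3 higher, 4 lower, 5 undetermined) and 9 between the classes (0 higher, 6 lower, 3 undetermined). With CpG-A the kinetochore gene Cenpf and the condensin gene Smc4 fell by 1.07 ± 0.18 (adjusted p = 3.84e-04) and 1.00 ± 0.17 (adjusted p = 4.30e-04). With CpG-B Kif18b and Cit fell by 1.02 ± 0.20 and 0.64 ± 0.15, and Pttg1, securin, and Cks1b, a Cdk subunit, rose by 0.88 ± 0.13 (adjusted p = 7.28e-05) and 0.84 ± 0.14 (adjusted p = 2.88e-04). Ckap2 and Incenp were lower with CpG-A than with CpG-B, by 0.98 ± 0.21 and 0.66 ± 0.15. Against LIF alone, 15 of the 45 were called with CpG-B + LIF (5 higher, 3 lower, 7 undetermined), where 25.4% of all genes were called. The median reading of the 45 genes there, undetermined ones included, was -0.01, and 22 read above 0. With CpG-A + LIF 15 were called (0 higher, 11 lower, 4 undetermined), where 17.4% of all genes were called.

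Of 39 regulators of the cycle, 17 were called with CpG-A (5 higher, 10 lower, 2 undetermined), 18 with CpG-B (6 higher, 6 lower, 6 undetermined) and 17 between the classes (4 higher, 11 lower, 2 undetermined). Cdk4, the partner of the D cyclins, fell with CpG-A by 0.87 ± 0.15 (adjusted p = 4.97e-04); between the classes it read -1.51 ± 0.14 or 1.81. Rb1, the retinoblastoma protein that holds E2F in check, fell with CpG-A by 1.03 ± 0.18 (adjusted p = 5.38e-04), and E2f4 and Max rose by 0.99 ± 0.17 and 0.61 ± 0.13. With CpG-B Rbl1, a relative of Rb1, and Mybl2 rose by 1.06 ± 0.22 (adjusted p = 0.00187) and 0.94 ± 0.21 (adjusted p = 0.0028), and Tfdp2 and Cdc25c fell by 1.04 ± 0.19 and 1.04 ± 0.20. Lin9, of the MuvB complex, and Cdc25a were lower with CpG-A than with CpG-B, by 1.08 ± 0.17 (adjusted p = 2.73e-04) and 0.79 ± 0.14 (adjusted p = 6.98e-04), and Max and Cdkn2d were higher.

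Myc read -1.41 ± 0.20 or 1.91 with CpG-A and 1.55 ± 0.20 or -1.77 with CpG-B, both called with the direction undetermined. Cdkn1b, the inhibitor p27, read -1.46 ± 0.15 or 1.86 with CpG-A and -1.20 ± 0.15 or 2.12 with CpG-B, also called and undetermined. E2f1 was not called in either (-0.40 ± 0.18 and 0.05 ± 0.18), and was lower with CpG-A + LIF than with CpG-B + LIF, by 0.73 ± 0.16 (adjusted p = 0.00349). Cdkn1a was not analysed here.

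Markers of the sorted cells and of cells that could accompany them were read the same way, as differences only, since levels and the detection of a marker cannot be recovered. Of 9 pDC markers, 4 were called with CpG-A and 7 with CpG-B, against 16.7% and 19.2% of all genes; Siglech, on which cells were sorted, fell by 0.58 ± 0.15 with CpG-A and read 1.40 ± 0.15 or -1.92 with CpG-B. B lineage markers were called in 3 and 1 of 7, granulocyte and myeloid progenitor markers in 2 and 3 of 8, erythroid markers in 2 and 2 of 4, T and NK markers in 0 (limma; 0 at an unadjusted p under 0.05) and 1 of 4, and conventional DC markers in 1 and 2 of 4. Between CpG-A and CpG-B 6 of the 9 pDC markers were called (13.0% of all genes), 5 of them higher with CpG-A, Spib by 1.01 ± 0.15 and Irf8 by 0.51 ± 0.13. The part of these shifts in the results on the cell cycle genes was not tested.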

How the data were processed

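Total RNA of 17 cultures was hybridised to single-channel Affymetrix arrays; the submitters' processing notes name RMA, with no version. The authors deposited RMA intensity values, but per the table itself they are digits without a decimal mark: 1 of 419560 cells is not a whole number, and 90.0% have 10 digits. Values were taken as log2 of the deposited intensity digits, modulo 3.32.

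Of 24680 probe sets, 21354 carried 1 symbol, 1275 several and 2051 none. For each of 19751 genes the probe set with most listed accessions was used, and the lowest ID where these were tied (19676 symbols updated through RefSeq gene IDs). The probe sets of Pcna were tied, as were those of Hmgb2, so the choice for these genes rests on the ID alone. Group centres were circular means, and folded deviations were fitted over all 6 groups with limma 3.58.1 in R 4.3.3 (11 residual degrees of freedom), with Benjamini-Hochberg adjustment at 0.05. The fit was tested on simulated data. No filter on dim probes was possible. Precision is limited by how many arrays each group has. Arrays of a group differed by an SD of 0.282 to 0.357 over genes, so none was a copy.

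The 44 members, the wider lists, the markers and the 1.11 limit were chosen with earlier results of these data known. The requirement of a reading inside the limit both with and without LIF was not planned in advance. Per-array values are given for up to 3 members of each role with the smallest adjusted p in CpG-A or CpG-B against medium or against each other, plus Mki67, Pcna and the D and E cyclins, and for Mcm5, Mcm10, Kif23, Rrm1, Rrm2 and Tyms, chosen after their values were seen. From the wider lists the 2 genes with the smallest adjusted p in each direction are named, with Myc, E2f1 and Cdkn1b. Deviations of same-numbered arrays correlated at -0.08 to 0.24 over 40 pairs (6 over 0.1). All 3 pairs were over 0.1 for CpG-B with CpG-B + LIF alone (0.13, 0.24 and 0.14), a pairing read from the data and not from the labels; with the replicate number as a block that comparison also had 0 members called. Alternatives tried were a replicate block, circular medians, unfolding at the widest gap, spread from the groups compared alone, robust moderation, median scaling, another probe set, genes within a span of 1.66 only, a direction limit of 0.830 and leaving out arrays.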

Additional observations from a re-analysis of the deposited data

Results flagged for a closer look

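A test of the interaction set the nearest reading for CpG-B with LIF against that without LIF (limma, adjusted over all genes, 2.26% of which were called). It called 5 replication genes, with values of -2.95 (Mcm4), -2.70 (Mcm5), -2.84 (Mcm6), -2.63 (Cdc6) and 0.84 (Mcm7), in log2. Each is the difference of 2 nearest readings of which at least 1 is past the limit of 1.11, so a reading that crossed 1.66 changes it by 3.32. Taken instead as the difference of the LIF effects with and without CpG-B, a form chosen after seeing the data, the values were 0.37 for Mcm4, 0.63 for Mcm5, 0.49 for Mcm6 and 0.69 for Cdc6, and 0.84 as before for Mcm7. For Mcm4, Mcm5, Mcm6 and Cdc6 the 2 forms lie 1 step of 3.32 apart, so these calls do not show an effect of LIF. The adjusted p of Mcm7 was 0.0365 in the first form and 0.128 in the second, where 0 members were called by limma (5 at an unadjusted p under 0.05). The value and SE of Mcm7 are the same in both forms. Its adjusted p differed only through the adjustment over all genes, of which 446 were called in the first form and 27 in the second. For the interaction of LIF and CpG-A 0 members were called in either form (4 at an unadjusted p under 0.05 in the second form, lowest adjusted p 0.430).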

How the results depend on the processing

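No call read higher or lower turned to a call of the opposite sign. Calls with an undetermined direction did: unfolded at the widest gap, Mcm6 and Ccnd1 read -1.78 and 1.99 for CpG-B against medium, Ccnd1 2.01 for LIF against medium, Mcm3 1.77 between CpG-A and CpG-B, Ccnd1 -2.07 for CpG-A + LIF against LIF, Mcm4, Mcm5 and Cdc6 2.00, 1.67 and 1.73 for CpG-B + LIF against LIF, and Mcm4 -1.91 between CpG-A + LIF and CpG-B + LIF. When arrays were left out this also befell Mcm2, Mcm3, Mcm4, Mcm5, Mcm6, Cdc6, Cdc45, Tyms, Ccnb2 and Hmgb2 in some comparisons, and for Mcm4 with the block or median scaling (-1.64 for CpG-B against medium). The replication minus mitotic medians for LIF against medium and for LIF added to CpG-A, both near 0, took either sign. Over single genes and settings 10020 values stayed on their side of the threshold, 164 lost a call and 85 gained one. With the replicate block, members called numbered 18 (CpG-A against medium), 28 (CpG-B against medium), 15 (CpG-A against CpG-B), 19 (CpG-A + LIF against LIF), 29 (CpG-B + LIF against LIF) and 19 (CpG-A + LIF against CpG-B + LIF); 14 of the 17 arrays matched best an array of their own number, a hint from the data and not from the design. The block moved none of these counts over all members by over 1.5 times, but the mitotic genes called were 2 and 2 instead of 1 and 1 for CpG-A against CpG-B without and with LIF.

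With only genes whose arrays lay within 1.66, which leaves 23 members, calls fell to 10 for CpG-A against medium, 9 for CpG-B against medium, 0 for LIF against medium, 2 for CpG-A against CpG-B, 8 for CpG-A + LIF against LIF, 12 for CpG-B + LIF against LIF, 7 for CpG-A + LIF against CpG-B + LIF and 0 for the interaction with CpG-B. The replication minus mitotic median then was 0.88 (CpG-A), 1.16 (CpG-B) and 0.10 (LIF) against medium, -0.40 between CpG-A and CpG-B, 0.62 for CpG-A + LIF against LIF and -0.16 for LIF added to CpG-A. With the spread from 2 groups alone LIF against medium had 0 calls. Unfolded at the widest gap, the interactions with CpG-A and CpG-B had 1 and 1 call, and the median difference for CpG-B + LIF against LIF was 1.49. The interaction with CpG-B taken as a difference of LIF effects had 0. Without every array numbered 2, a choice made after seeing the data, the median differences were 1.30 (CpG-B against medium), -0.22 (LIF against medium), 1.00 (CpG-A + LIF against LIF), 0.23 (CpG-B + LIF against LIF) and -0.57 (CpG-A + LIF against CpG-B + LIF); the median of the replication genes for CpG-B + LIF against LIF went from 0.70 to -0.18. Without the arrays numbered 2 the undetermined readings of Cdc45 and Tyms for CpG-B + LIF against LIF turned from 1.63 and 1.18 to -1.52 and -1.56. Both stayed called, and the median includes such readings. The causes were not tested, apart from the smaller number of genes in the first setting.

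Leaving out 1 array at a time, members called ran from 12 to 19 (CpG-A against medium), 17 to 28 (CpG-B against medium, 17 without medium replicate 3), 0 to 1 (LIF against medium), 8 to 14 (CpG-A against CpG-B), 11 to 20 (CpG-A + LIF against LIF, 11 without LIF replicate 3), 24 to 29 (CpG-B + LIF against LIF), 14 to 19 (CpG-A + LIF against CpG-B + LIF), 0 to 1 and 3 to 7 (interactions with CpG-A and CpG-B), and stayed at 0 for LIF added to CpG-A or CpG-B. The median differences ran from 0.86 to 1.04, 1.30 to 1.52, -0.22 to 0.04, -0.79 to -0.59, 0.71 to 0.92, 0.96 to 1.40 and -0.87 to -0.61 in the first 7 comparisons of that order, from -0.07 to 0.03 for LIF added to CpG-A and from 0.13 to 0.28 for LIF added to CpG-B. With a direction limit of 0.830 the members read higher or lower numbered 4 (CpG-A) and 7 (CpG-B) against medium.

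Signal over background cannot be recovered, so dim genes could not be told from bright ones. With 2 or 3 arrays a group, many calls rest on 1 medium array, and changes past 3.16-fold can appear with the opposite sign.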
